A study of Rattus norvegicus with 40 samples.

Results

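The mRNA of the B7 family ligands was followed in rat liver during treatment with diethyl nitrosamine (DEN), a liver carcinogen. The family was defined by 6 gene symbols, Cd276, Cd274, Pdcd1lg2, Cd80, Cd86 and Icoslg. Of these, 5 had a row among the 17337 genes counted, and Icoslg was not analysed here. The series held 40 libraries from 24 male Fischer 344 rats that were 7 weeks old when treatment began. DEN was given by intra-peritoneal injection once a week at 50 mg/kg. One group of 4 rats was injected for 8 weeks (8 w) and one for 14 weeks (14 w), and a further 4 rats had 14 weeks of injections and then 6 weeks without DEN (20 w). At each time 4 untreated rats of the same age formed the no DEN group. Non-tumoral (NT) liver was sequenced from all treated rats, and 2 tumor nodules from each rat at 14 w and 20 w, so that both tissues came from the same animals. Tissue pieces were sequenced whole. A difference in the number of cells that carry a transcript and a difference in the amount per cell therefore cannot be told apart.

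Ligands of the B7 family sit on the surface of antigen-presenting cells and of many tissue cells, and adjust how a T cell responds to the antigen it has recognised. CD80 and CD86 deliver the costimulatory signal through CD28 and an inhibitory one through CTLA-4. ICOSLG is the ligand of ICOS. PD-L1, the product of Cd274, and PD-L2, the product of Pdcd1lg2, bind the inhibitory receptor PD-1, and blocking this axis is the basis of immune checkpoint therapy in liver cancer. Cd276 codes for B7-H3, a member found on many tumors and in stroma, whose receptor on T cells has not been settled.

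Cd276 and Cd274 lie apart in the genome and moved in opposite directions in 14 w nodules. Their promoters, and that of Cd86, which also changed, are shown as the stretches of 250 bases just before the transcription start, taken from RefSeq on the GRCr8 assembly and read along the strand of the gene. The count files were made on rn6, so these positions do not apply to them. Capitals mark matches on either strand to 5 motifs. These were the GC box, spelled GGGCGG, the CCAAT box, the TATA box, spelled TATAAA, the GAS element, spelled TTCNNNGAA, and the IRF-type element, spelled GAAANNGAA, and no matches overlapped in these stretches.
Cd276 (chr8:67863919-67864168, minus strand): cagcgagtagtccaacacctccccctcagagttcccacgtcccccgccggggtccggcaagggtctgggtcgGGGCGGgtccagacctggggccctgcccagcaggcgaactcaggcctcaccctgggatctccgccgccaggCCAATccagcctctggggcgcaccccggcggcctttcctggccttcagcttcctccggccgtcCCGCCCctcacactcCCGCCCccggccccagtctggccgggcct
Cd274 (chr1:236529982-236530231, plus strand): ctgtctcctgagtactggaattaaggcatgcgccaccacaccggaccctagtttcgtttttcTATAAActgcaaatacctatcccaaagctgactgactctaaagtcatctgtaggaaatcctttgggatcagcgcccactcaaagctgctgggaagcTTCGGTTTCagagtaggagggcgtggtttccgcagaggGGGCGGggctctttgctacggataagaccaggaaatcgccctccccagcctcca
Cd86 (chr11:77669031-77669280, plus strand): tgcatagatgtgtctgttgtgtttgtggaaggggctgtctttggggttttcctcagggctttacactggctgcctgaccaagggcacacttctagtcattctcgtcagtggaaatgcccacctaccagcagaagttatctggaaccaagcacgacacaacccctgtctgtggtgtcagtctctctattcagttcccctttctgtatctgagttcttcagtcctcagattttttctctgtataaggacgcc

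The Cd276 stretch had 73.6% G and C and 19 CG dinucleotides, and 18.4% of all 33469 promoter stretches of this length had as many. It held 3 GC boxes and 1 CCAAT, motifs present in 30.5% and 34.0% of all stretches. The Cd274 stretch had 52.8% G and C and 10 CG dinucleotides. It held 1 IRF-type match that began 92 bases before the start, 1 GC box and 1 TATAAA, and 8.1% and 12.9% of all stretches held the IRF-type element and TATAAA. The Cd86 stretch had 48.8% G and C, 3 CG dinucleotides and none of the 5 motifs. A GAS match (7.7% of all stretches) was in none of the 3, which says only that these letters were not within the stretches shown. Cd274 and Pdcd1lg2 are neighbours on chromosome 1 with 0 protein-coding genes between them. Cd80 and Cd86 share chromosome 11 with 24 genes between them.

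Between 20528515 and 160622633 read pairs were counted per library (median 30477421). The largest library, NT liver of rat H26 at 20 w, stood apart from the next one at 39355849. Nodule 1 of rat F06 at 14 w had the fewest counted pairs and 34.5% of its pairs in no gene, against at most 28.2% in any other library. Albumin took 10.4% to 19.0% of counted pairs, and each of 6 hepatocyte markers was found in every group. Levels are given as CPM (counts scaled to a fixed total of counted pairs) after TMM scaling, which corrects for library composition. Transcript lengths were not used, so a level of one gene is not compared with that of another. Cd276, Cd274 and Cd86 had counts in all 40 libraries, whereas Cd80 had 165 counts in all and Pdcd1lg2 had 63. A gene was called changed when its log2 change reached 0.5 in either direction and its Benjamini-Hochberg adjusted p, over all genes tested, did not exceed 0.05 (edgeR quasi-likelihood test, 4 rats per group, the nodules of a rat added together).

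**Figure D1:**
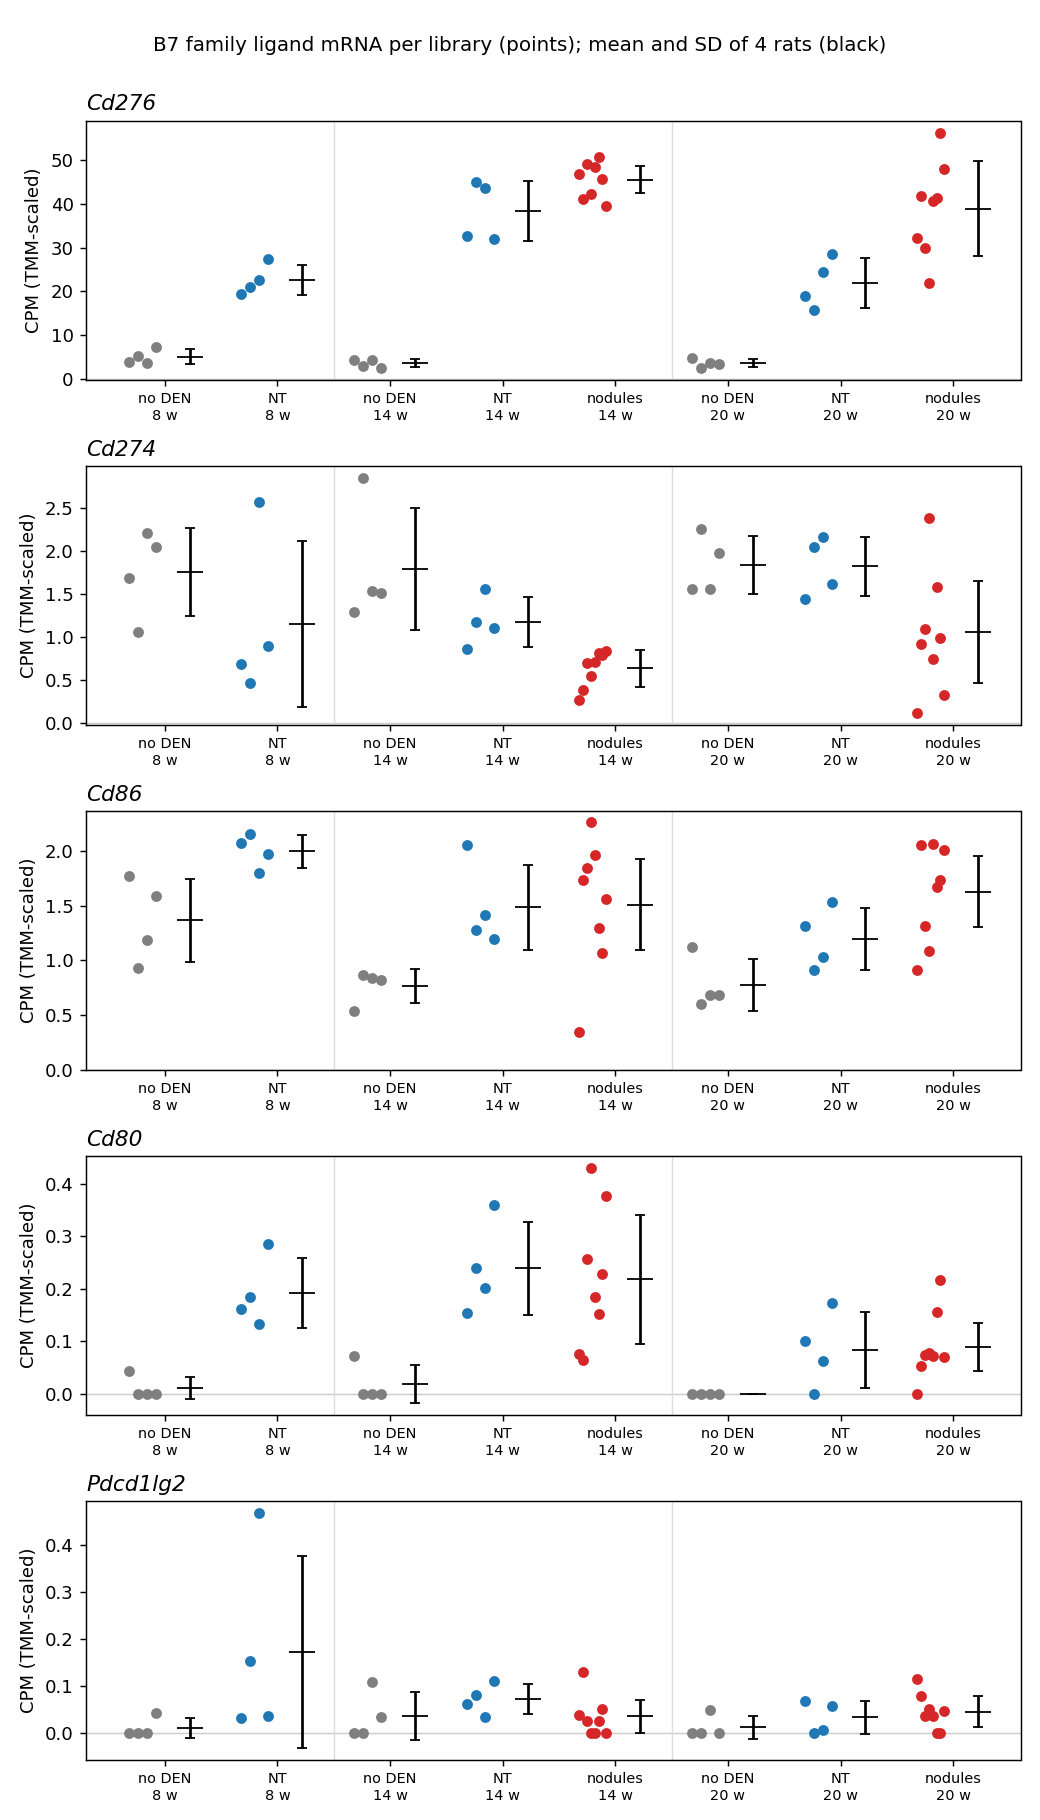
Level of each B7 family ligand (TMM-scaled CPM, linear axes that differ between panels) in the 8 groups. Each point is a library, black marks give the mean and SD of the 4 rats of a group, and Cd276 is higher in all DEN-treated libraries than in all no DEN libraries.

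In NT liver, Cd276 was the 1 member of the 3 tested that was called higher at all 3 times. Cd80 had too few counts for this test and is given below. By the ratio of mean CPM, Cd276 rose 4.38-fold at 8 w, 10.5-fold at 14 w and 5.93-fold at 20 w. At 8 w it was at 4.06, 5.34, 3.83 and 7.42 CPM in no DEN rats H05 to H08, and at 19.5, 20.97, 22.6 and 27.5 CPM in DEN rats F09, F10, H17 and H18. The groups did not overlap. The log2 fold change was 2.13 (SE 0.20, adjusted p = 5.83e-05), where 21.7% of the 10812 genes tested were called in either direction. Among the members, 1 of the 3 tested was called at 8 w. Groups without overlap were common. Of 10100 genes that averaged 1 CPM or more, 32.6%, 50.1% and 28.1% did not overlap between NT and no DEN liver at the 3 times, and 50.5% and 48.5% between nodules and no DEN liver.

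At 14 w, Cd276 was at 4.45, 3.13, 4.44 and 2.61 CPM in no DEN rats H09 to H12. In NT liver of rats F06, H21, H22 and H23 it was at 32.7, 44.8, 43.5 and 32.03 CPM. Each treated rat was above each untreated one, and also above the highest NT value at 8 w. This was a log2 fold change of 3.39 (SE 0.19, adjusted p = 3.06e-06). Here 2 of 3 tested members were called, beside 32.6% of 11016 genes. The DEN effect on Cd276 was larger at 14 w than at 8 w by 1.27 on the log2 scale (SE 0.29, interaction test in edgeR, adjusted p = 0.0173), and 8.96% of all genes passed this test. Without the rats numbered F, which have no untreated rats of their own letter, the difference was 1.18 with an adjusted p of 0.0498.

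At 20 w, 6 weeks after the last injections, Cd276 in no DEN rats H13 to H16 was at 4.88, 2.69, 3.74 and 3.48 CPM. In NT liver of rats F03, H25, H26 and H28 it was at 19.0, 15.7, 24.3 and 28.5 CPM. The groups again did not overlap, and all 4 NT values lay below the lowest NT value of 14 w. On the log2 scale the change was 2.56 (SE 0.22, adjusted p = 0.000214), and Cd276 was the 1 called member of 3 tested, with 18.1% of 10827 genes called. The effect was smaller than at 14 w by 0.82 on the log2 scale, which did not pass the interaction test (SE 0.31, adjusted p = 0.204, with 0.738% of genes passing).

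Nodules at both times had more Cd276 than no DEN liver. At 14 w, nodules 1 and 2 were at 46.7 and 41.1 CPM in rat F06 and at 48.9 and 42.3 CPM in H21. In H22 they were at 48.3 and 50.6 CPM, and in H23 at 45.5 and 39.5 CPM. All 8 nodules were close together, and the 2 nodules of a rat differed by 1.05-fold to 1.16-fold. Against no DEN liver the log2 fold change was 3.60 (SE 0.18, adjusted p = 3.43e-06), from a mean of 3.66 ± 0.93 to 45.4 ± 3.05 CPM (SD, n = 4 rats). All 3 tested members were called here, beside 39.1% of 11316 genes.

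At 20 w the nodules were more spread. They were at 32.3 and 41.6 CPM in F03, 29.9 and 21.8 CPM in H25, 40.5 and 41.2 CPM in H26, and 56.0 and 47.8 CPM in H28. The lowest nodule, at 21.8 CPM, was still above every no DEN liver. Against no DEN liver the log2 fold change was 3.34 (SE 0.23, adjusted p = 1.42e-05). Here 2 of 3 tested members were called, beside 38.8% of 11199 genes. The nodule effect at 20 w differed from that at 14 w by -0.27 (SE 0.30), and its adjusted p was 1.00 where 0.0862% of genes passed. NT liver and nodules of a time were compared with the same 4 untreated rats, so their 2 differences are not independent.

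Over the 8 groups, mean Cd276 ran in the following order. The 3 no DEN groups were lowest at 3.66 ± 0.93 (14 w), 3.70 ± 0.91 (20 w) and 5.16 ± 1.65 CPM (8 w), and their ranges overlapped. NT liver at 20 w (21.9 ± 5.65 CPM) and 8 w (22.6 ± 3.47 CPM) came next and overlapped with each other. NT liver at 14 w (38.2 ± 6.83 CPM), nodules at 20 w (38.8 ± 10.8 CPM) and nodules at 14 w (45.4 ± 3.05 CPM) were highest, and each overlapped with its neighbour in this order. Nodules at 20 w, with rat values of 25.2 to 51.4 CPM, also overlapped NT liver at 20 w and 8 w. The log2 fold change of Cd276 against no DEN liver passed the call threshold under every alternative setting run, with values between 2.01 and 2.35 at 8 w, 3.25 and 3.50 at 14 w and 2.40 and 2.69 at 20 w in NT liver.

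Cell type lists are given beside Cd276 with their calls, where the share of all genes called was 21.7%, 32.6% and 18.1% in NT liver at the 3 times in turn and 39.1% and 38.8% in nodules at the later 2. Of 8 stellate cell and fibroblast markers, 6 of 7 tested rose in NT liver at 8 w, 5 rose and 1 fell at 14 w, and 4 rose at 20 w. In nodules 5 of 7 rose at each time. Their summed level was 193 to 248 CPM in no DEN and 353 to 488 CPM in NT liver at 8 w, and 195 to 241 against 360 to 481 CPM at 14 w. At 20 w it was 164 to 209 against 237 to 260 CPM, and in nodules 411 to 497 CPM (14 w) and 266 to 346 CPM (20 w). Col1a2 is listed at 0 in every library, also in 14 w nodules, where Col1a1 averaged 50.9 CPM, so its row gives no reading of that collagen. Of 4 markers of dividing cells 4, 4 and 2 rose in NT liver and 4 in nodules at each time. They summed to 10.3 to 22.5 CPM over all no DEN rats, to 75.5 to 95.2, 61.4 to 154 and 19.0 to 61.9 CPM in NT liver at the 3 times (8 w, 14 w and 20 w, an order kept in all lists of values that follow), and to 66.8 to 169 and 40.8 to 129 CPM in nodules. Their 20 w NT range overlapped that of no DEN rats. Of 4 cholangiocyte markers found 2, 4 and 4 rose in NT liver and 4 in nodules at each time. These summed to 16.1 to 23.6 CPM over all no DEN rats, to 28.8 to 36.4, 38.2 to 88.1 and 34.3 to 54.7 CPM in NT liver, and to 60.9 to 118 and 70.5 to 189 CPM in nodules. Of 6 endothelial markers 4 rose in each of the 5 comparisons with no DEN liver, and their sum was 60.0 to 162 CPM over all no DEN rats and 166 to 235 CPM over all treated ones. None of the dividing, cholangiocyte or endothelial markers found was at 0. The part of these cells in the Cd276 result was not tested.

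**Figure D2:**
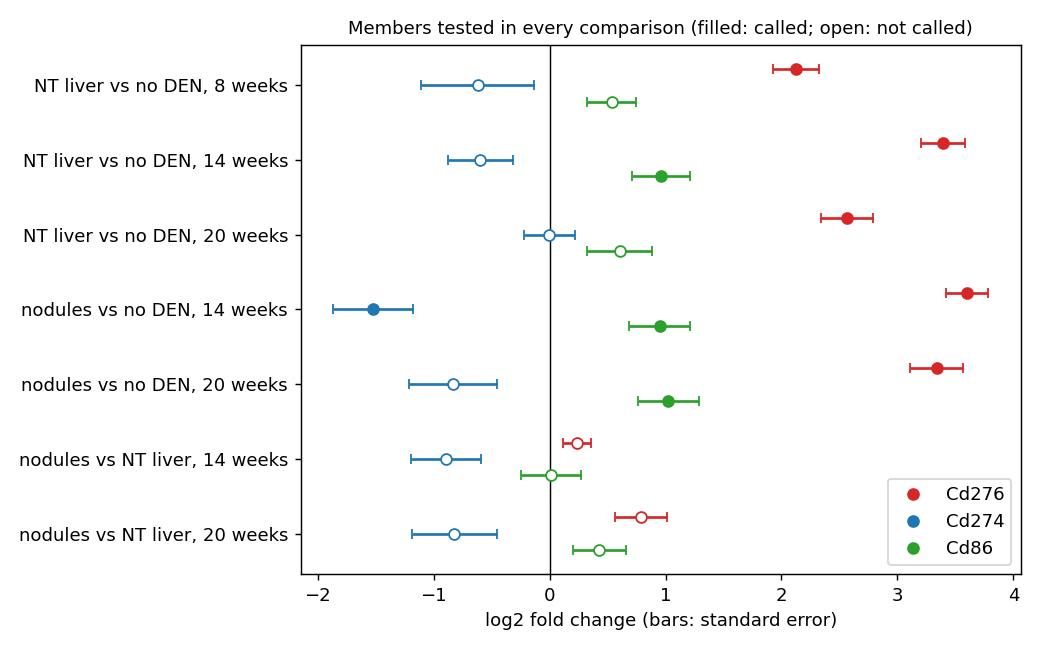
Log2 fold change (horizontal axis, bars give the standard error) of Cd276, Cd274 and Cd86 in 7 comparisons of 4 rats per group, with filled points for called changes. Cd276 lies between 2.13 and 3.60 in the 5 comparisons with no DEN liver, and the called Cd274 change is the fall of 1.52 in 14 w nodules. The comparisons of nodules with NT liver are drawn without pairing tissues by rat. With pairing, Cd276 and Cd274 were also called there at 20 w.

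Cd274, which codes for PD-L1, was not called higher in any comparison and fell in nodules at 14 w. In no DEN rats of 8 w it was at 1.68, 1.06, 2.21 and 2.04 CPM, and in NT liver at 0.679 (F09), 0.461 (F10), 2.57 (H17) and 0.895 CPM (H18). Rat H17 was the highest of the 8 and the other treated rats were below all untreated ones. In edgeR the log2 fold change was -0.62 (SE 0.49, adjusted p = 0.346). Without H17 it was -1.40 with an adjusted p of 0.00527, a call that thus rests on leaving out 1 rat, and without the rats numbered F it was -0.00.

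At 14 w, Cd274 was at 1.29, 2.85, 1.53 and 1.51 CPM in no DEN liver and at 0.859, 1.18, 1.55 and 1.11 CPM in NT liver of F06, H21, H22 and H23. The groups overlapped and the log2 fold change was -0.60 (SE 0.28, adjusted p = 0.0945). In nodules of the same rats it was at 0.266 and 0.386 (F06), 0.693 and 0.545 (H21), 0.705 and 0.814 (H22), and 0.789 and 0.840 CPM (H23). All 8 nodules lay below the lowest no DEN rat. Against no DEN liver the log2 fold change was -1.52 (SE 0.34, adjusted p = 0.00537), from 1.79 ± 0.71 to 0.633 ± 0.217 CPM (SD, n = 4 rats). The lowest value, 0.266 CPM, is from nodule 1 of F06, the library with the most pairs in no gene. The change was -1.29 without F06, -1.47 with nodule 2 of each rat alone, and -1.23 without rat H10, the highest of the untreated rats, and was called each time.

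At 20 w, Cd274 did not differ between NT and no DEN liver beyond the spread. No DEN rats were at 1.56, 2.25, 1.55 and 1.98 CPM and NT liver at 1.44, 2.05, 2.16 and 1.62 CPM. The log2 fold change was -0.00 with an SE of 0.22 (adjusted p = 0.998). Nodules were at 0.115 and 0.912 (F03), 1.09 and 2.38 (H25), 0.746 and 1.58 (H26), and 0.990 and 0.327 CPM (H28). The nodules ranged from below to above all untreated rats, and the 2 nodules of a rat differed by 2.12-fold to 7.96-fold. Against no DEN liver the log2 fold change was -0.83 (SE 0.38, adjusted p = 0.0871). Without rat H25 it was -1.26 (adjusted p = 0.00719). With nodule 1 of each rat alone it was -1.38 (adjusted p = 0.0294), and with nodule 2 alone -0.51 (adjusted p = 0.414). Whether the DEN effect on Cd274 differed between times was tested 3 times, and its interactions were 0.03, 0.60 and 0.68 with adjusted p of 0.984, 0.405 and 1.00.

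The 6 hepatocyte markers summed to 270855 to 309193 CPM in no DEN liver, 186009 to 228919 CPM in NT liver and 162736 to 197344 CPM in nodules at 14 w. In 14 w nodules 4 of the 6 fell and 1 rose, beside 39.1% of all genes called. The same counts held in NT liver at 14 w, beside 32.6% of all genes called. In 20 w nodules 3 fell and 1 rose, beside 38.8%. None of the 6 was at 0. The part of hepatocyte content in the Cd274 result was not tested.

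Pdcd1lg2, which codes for PD-L2, did not pass the filter on low counts in any of the 7 comparisons. It had 0 counts in 14 libraries. No DEN groups held 1, 4 and 1 counts over 4 rats at the 3 times. NT liver held 21, 10 and 5 counts and nodules 9 (14 w) and 12 (20 w). Of the 21 counts at 8 w, 14 came from rat H17, at 0.467 CPM, and the other 3 rats had 1 to 5 counts. H17 thus had the highest level of both Cd274 and Pdcd1lg2 among treated livers of 8 w. Without the filter its log2 fold change at 8 w was 3.54 (edgeR, SE 1.26, adjusted p = 0.0526), and DESeq2 called it at 3.73 (adjusted p = 0.0400). The pooled ratio at 8 w was 16.5, with an exact 95% counting interval of 2.65 to 681. The intervals of the 14 w and 20 w ratios in NT liver, 0.578 to 8.75 and 0.176 to 74.4, span 1, so that no difference was detectable at this depth. Such intervals cover counting error and leave out the spread between rats.

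The costimulatory ligand Cd86, a product of dendritic cells, macrophages and activated B cells, rose in NT liver at 14 w and in nodules at both times. At 8 w it was at 1.77, 0.927, 1.18 and 1.59 CPM in no DEN liver and at 2.07, 2.15, 1.80 and 1.97 CPM in NT liver. The groups lay apart by a narrow margin. This was a log2 fold change of 0.54 (SE 0.21, adjusted p = 0.0684). Without untreated rat H05, the highest of its group, it was 0.68 (adjusted p = 0.0409).

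At 14 w, Cd86 was at 0.539, 0.866, 0.836 and 0.823 CPM in no DEN liver and at 2.06 (F06), 1.28 (H21), 1.42 (H22) and 1.19 CPM (H23) in NT liver. All treated rats were above all untreated ones. On the log2 scale the change was 0.96 (SE 0.25, adjusted p = 0.00702). In nodules it was at 0.341 and 1.74 (F06), 1.85 and 2.27 (H21), 1.96 and 1.30 (H22), and 1.07 and 1.56 CPM (H23). Nodule 1 of F06 was below all untreated rats and the other 7 nodules were above them. That nodule is the library with the most pairs in no gene, whose part in its level was not tested. In edgeR the log2 fold change was 0.95 (SE 0.26, adjusted p = 0.0139), and with nodule 1 of each rat alone 0.77 (adjusted p = 0.222). It was 1.14 (adjusted p = 0.00323) with nodule 2 alone and 1.09 (adjusted p = 0.00149) without F06.

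At 20 w, Cd86 was at 1.12, 0.603, 0.680 and 0.687 CPM in no DEN liver and at 1.31, 0.909, 1.03 and 1.53 CPM in NT liver of F03, H25, H26 and H28. The groups overlapped through rat H13 of the untreated group, and the log2 fold change was 0.61 (SE 0.28, adjusted p = 0.128). Nodules were at 0.916 and 2.06 (F03), 1.31 and 1.09 (H25), 2.06 and 1.68 (H26), and 1.73 and 2.01 CPM (H28). With the nodules of a rat added, all 4 rats were above all untreated ones. The log2 fold change was 1.02 (SE 0.26, adjusted p = 0.00827). The 3 interaction tests between times gave 0.42, -0.35 and 0.07 with adjusted p of 0.422, 0.661 and 1.00.

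The leukocyte lists differed in how many markers rose. The share of all genes called was 21.7%, 32.6% and 18.1% in NT liver at the 3 times and 39.1% and 38.8% in nodules. Ptprc, which codes for the leukocyte antigen CD45, ranged from 7.35 to 18.4 CPM over all no DEN rats. It was at 27.6 to 31.4, 17.01 to 33.0 and 13.3 to 23.7 CPM in NT liver at the 3 times, and at 15.6 to 31.8 and 16.8 to 19.3 CPM in nodules. It was called higher in all 5 comparisons with no DEN liver. Of 6 dendritic cell markers, 5 were found and tested. Of these, 4, 4 and 0 rose in NT liver at the 3 times, and 3 and 4 rose in nodules. Their sum, most of which was Cd74, was 94.95 to 249.99 CPM over all no DEN rats, 330 to 601, 253 to 468 and 153 to 831 CPM in NT liver and 259.6 to 721 and 254 to 1093 CPM in nodules. Of 8 macrophage and Kupffer cell markers 1, 1 and 2 rose in NT liver and 1 and 2 in nodules, and their sums overlapped between treated and untreated rats at all times. Of 5 B cell markers found, 3 were tested, and 3, 1 and 1 rose in NT liver and 0 and 1 in nodules. Their sum was 3.69 to 9.72 CPM over all no DEN rats and 5.51 to 12.9 CPM over all treated ones. Of 6 T cell markers, 4 of 5 tested, 1 of 3 and 2 of 4 rose in NT liver and 4 of 6 in nodules at each time. Cd3d, Cd3g and Cd8b averaged between 0.0726 and 0.275 CPM in no DEN groups and can pass the filter through the treated group, so their counts are a description. Summed, the T cell list was at 10.95 to 28.3 CPM over all no DEN rats and 15.6 to 29.6 CPM over all treated ones. Most of this sum was Cd4, which averaged 18.4 CPM in no DEN and 18.6 CPM in NT liver at 8 w. Cd3g averaged 0.275 and 0.928 CPM there. None of the leukocyte markers found was at 0 in a whole group, and the part of leukocyte content in the Cd86 result was not tested.

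Cd80, the other ligand of CD28, had few counts in untreated liver and was found in most treated libraries. No DEN rats had 0 counts in 10 of 12 libraries, with 1 count in H05 and 2 in H09. NT liver at 8 w had 5, 6, 4 and 8 counts in F09, F10, H17 and H18, and at 14 w 5, 9, 6 and 13 counts in F06, H21, H22 and H23. At 20 w it had 3, 0, 10 and 6 counts in F03, H25, H26 and H28. The 8 nodules of 14 w held 63 counts and the 8 of 20 w held 24. The pooled ratio to no DEN liver was 18.03 at 8 w (exact 95% counting interval 2.93 to 743) and 13.2 at 14 w (3.38 to 114) in NT liver, and 12.4 in nodules at 14 w (3.29 to 104). At 20 w, where the no DEN group had 0 counts, Cd80 was at least 1.99-fold higher in NT liver and at least 2.48-fold higher in nodules, taking 3 counts over the group as the floor. These bounds leave out the counting error of the treated group, and NT liver overlapped with no DEN liver there, since rat H25 had 0 counts.

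The filter on low counts removed Cd80 from these comparisons. Without the filter, its edgeR log2 fold change was 3.67 (SE 0.84, adjusted p = 0.00593) at 8 w and 3.45 (SE 0.80, adjusted p = 0.0034) at 14 w in NT liver. In NT liver at 20 w its adjusted p was 0.0907. In nodules its adjusted p was 0.0167 at 14 w and 0.0281 at 20 w. DESeq2 called Cd80 in NT liver at 8 w and 14 w and in 14 w nodules, and gave adjusted p of 0.173 in NT liver and 0.0502 in nodules at 20 w. The fitted changes rest on no DEN groups with at most 2 counts and depend on the prior count.

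Cd276 rose relative to both other well-counted members in the same libraries. The log2 ratio of Cd276 to Cd274 averaged 1.54 ± 0.66 in no DEN liver and 4.52 ± 0.98 in NT liver at 8 w (SD, n = 4 rats). It was 1.04 ± 0.73 against 4.98 ± 0.23 at 14 w, and 0.98 ± 0.59 against 3.54 ± 0.49 at 20 w. In nodules it was 6.13 ± 0.52 at 14 w and 5.24 ± 1.13 at 20 w. Every treated rat was above every untreated rat of its time, also H17, at 3.12. The differences were 2.99, 3.94, 2.56, 5.09 and 4.26, each with an exact permutation p of 0.0286 (2-sided), the smallest that 4 against 4 rats allow, which stayed 0.0286 after adjustment over 10 ratio tests. The ratio of Cd276 to Cd86 was higher by 1.59, 2.48, 1.94, 2.73 and 2.31 with the same p. Gene length drops out of these differences but not out of the ratios themselves.

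**Figure D3:**
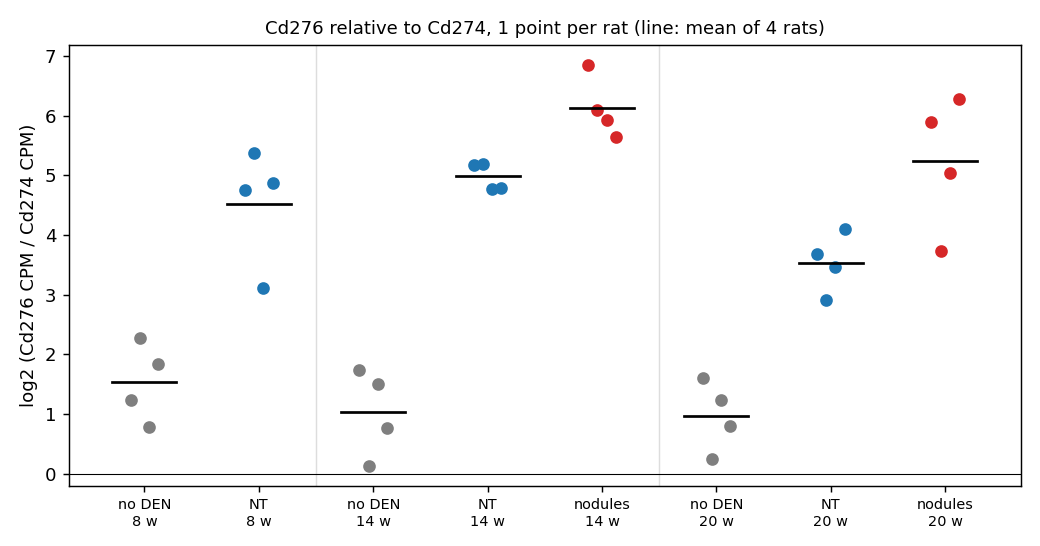
Log2 ratio of Cd276 to Cd274 CPM, 1 point per rat (nodules of a rat added), with the mean of 4 rats as a line. The 4 rats of each DEN group lie above the no DEN rats of the same time, between 2.92 and 6.85 against 0.14 to 2.28, and the height of the ratio also reflects gene length.

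Nodules were then compared with NT liver of the same 4 rats. At 14 w, 7 of 8 nodules had more Cd276 than the NT liver of their rat, and with both nodules added the log2 difference ran from 0.03 in H21 to 0.42 in F06. This was a log2 fold change of 0.24 (SE 0.12, adjusted p = 0.459), and with the rat as a block, which compares tissues within a rat, it was 0.25 (SE 0.09, adjusted p = 0.205). In this comparison 0 of the 4 members tested and 0% of 11466 genes were called by edgeR with or without the block, although 1348 genes had an unadjusted p under 0.05 without it and DESeq2 called 24.

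At 20 w, all 8 nodules had more Cd276 than the NT liver of their rat, by 0.68 (H25) to 0.99 (F03) on the log2 scale with both nodules added. On the log2 scale the change was 0.79 (SE 0.23, adjusted p = 0.1095) without the block, where 0 of 3 tested members and 0% of 11546 genes were called by edgeR, 2767 genes had an unadjusted p under 0.05 and DESeq2 called 904. With the rat as a block the change was 0.78 (SE 0.08, adjusted p = 1.80e-05). Of 3 members 2 were called in the blocked fit, and 14.7% of all genes. In the same fit 4 of 4 markers of dividing cells and 3 of 4 cholangiocyte markers were called higher, and 2 of 6 hepatocyte and 2 of 8 macrophage markers lower. Of the stellate cell list 1 of 7 and of the dendritic cell list 1 of 5 were called higher. None of the 6 endothelial, 6 T cell and 3 B cell markers tested, nor Ptprc, was called. The part of these cells in the blocked Cd276 result was not tested.

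Cd274 was lower in nodules than in NT liver of the same rat in all 8 rats when both nodules were added, by 0.45 to 1.38 on the log2 scale at 14 w and by 0.15 to 1.40 at 20 w. At 14 w 0 of 8 single nodules, and at 20 w 1 of 8, exceeded the NT liver of their rat, the exception being nodule 2 of H25. In edgeR the log2 fold change was -0.89 at 14 w (SE 0.30, adjusted p = 0.404; -0.92 and adjusted p = 0.167 with the rat as a block). At 20 w it was -0.82 (SE 0.37, adjusted p = 0.212), and with the rat as a block -0.90 (SE 0.22, adjusted p = 0.00868), the other call of that fit. Cd86 was higher in 4 of 8 nodules at 14 w and in 7 of 8 at 20 w. Its log2 fold change was 0.01 (SE 0.26, adjusted p = 0.985) at 14 w and 0.43 (SE 0.23, adjusted p = 0.279) at 20 w, and 0.45 (adjusted p = 0.0808) with the block.

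Cd80 and Pdcd1lg2 did not separate nodules from NT liver at this depth. Cd80 passed the filter at 14 w only, with a log2 fold change of -0.14 (SE 0.49, adjusted p = 0.902). Its pooled ratio of nodules to NT liver was 0.936 (exact 95% counting interval 0.605 to 1.47) at 14 w and 1.25 (0.654 to 2.41) at 20 w. The ratio of Pdcd1lg2 was 0.441 (0.159 to 1.21) and 2.37 (0.776 to 8.58). Pooling gives the most weight at 20 w to NT liver of rat H26, the largest library. By the ratio of mean CPM over rats, Cd80 was at 1.06 and Pdcd1lg2 at 1.38 there.

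**Figure D4:**
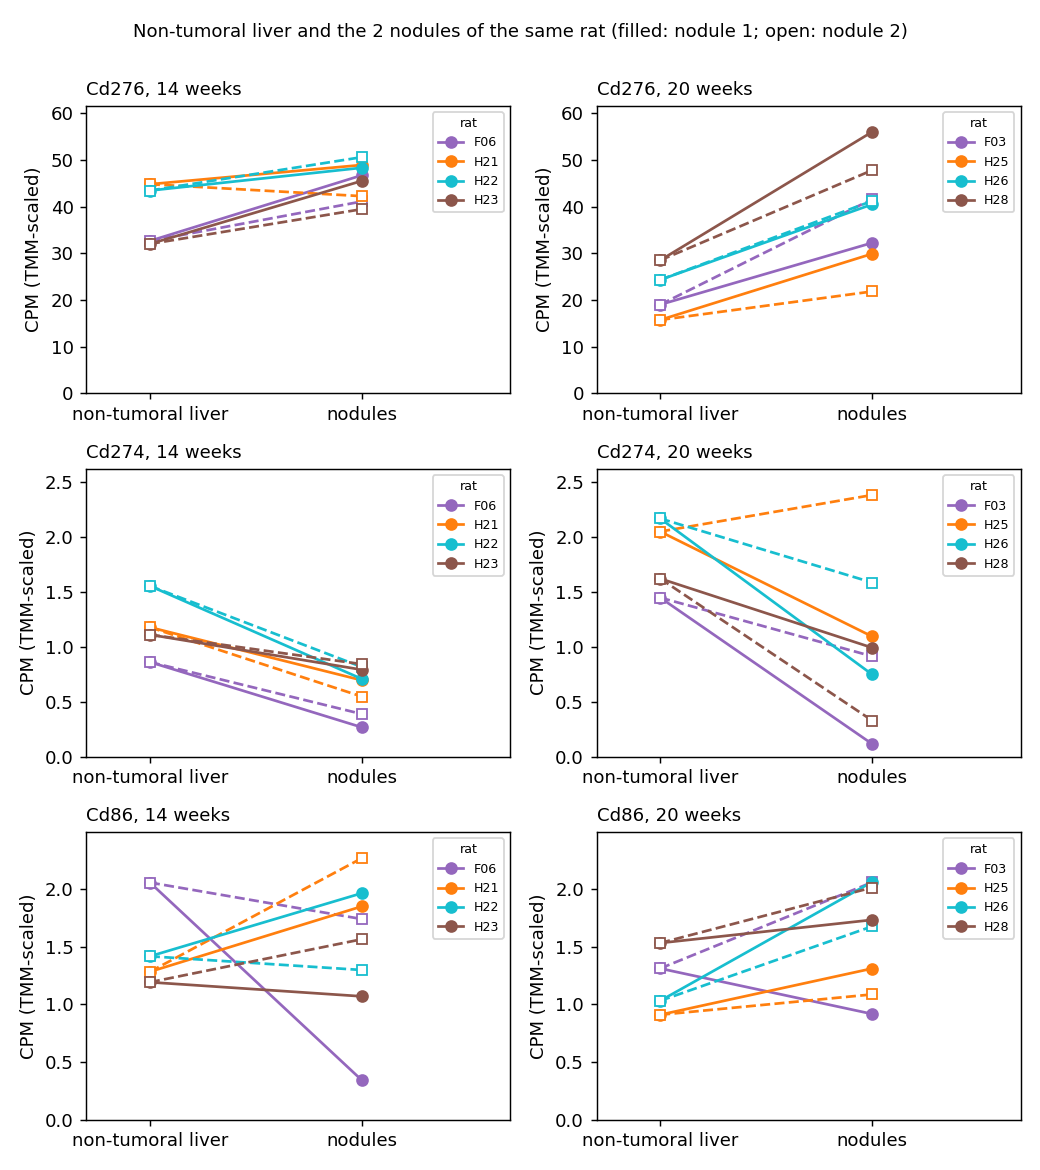
CPM (TMM-scaled, vertical axis) of Cd276, Cd274 and Cd86 in NT liver and in both nodules of each rat at 14 w and 20 w, with lines joining tissues of a rat. Cd276 rises to all 8 nodules at 20 w and to 7 of 8 at 14 w, and Cd274 falls to all 8 nodules at 14 w and to 7 of 8 at 20 w.

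The receptors of the family had few counts. Pdcd1, which codes for PD-1, had 1 count in the 40 libraries and Ctla4 had 25. As with Col1a2, a row as empty as that of Pdcd1 may give no reading of the gene, which was not tested. Cd28 had 204 counts and Icos, the receptor of ICOSLG, 1043. Icos was the receptor tested in all comparisons, with means of 0.749 ± 0.252, 0.599 ± 0.231 and 0.431 ± 0.197 CPM in no DEN liver and 0.964 ± 0.185, 0.911 ± 0.250 and 0.848 ± 0.243 CPM in NT liver at the 3 times, and it was not called. Treml2 was not analysed here. Of the other B7-related ligands, Vtcn1 (136 counts) and Btn1a1 (55 counts) did not pass the filter and the other 5 of the list of 7 were not analysed here.

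Of 11 genes that act on PD-L1, 1, 2 and 1 rose in NT liver at the 3 times and 0 fell, and 2 rose and 2 fell in nodules at each time. These counts stand beside 21.7%, 32.6%, 18.1%, 39.1% and 38.8% of all genes called, so the share in nodules was near that of all genes. The median log2 fold changes of the list were -0.21, 0.23, 0.12, 0.10 and 0.08 beside medians of -0.01, 0.02, 0.02, 0.00 and 0.01 over all genes tested. Socs1, a feedback inhibitor of cytokine receptor signalling, rose in all 5 comparisons with no DEN liver, from 1.07 (SE 0.34) at 8 w to 1.79 (SE 0.27) in 20 w nodules. Cmtm6, whose product keeps PD-L1 at the cell surface, fell in 20 w nodules by 0.89 (SE 0.18, adjusted p = 0.00273) and had -1.20 (SE 0.53, adjusted p = 0.0891) in 14 w nodules. Ifngr2, a chain of the interferon gamma receptor, rose by 0.55 in NT liver at 14 w and by 0.51 and 0.66 in nodules.

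Of 12 other checkpoint receptors and ligands 9 had a row, and 7 or 8 were tested in each comparison with no DEN liver. In NT liver 3, 4 and 2 rose and 0, 2 and 2 fell at the 3 times, and in nodules 3 rose at each time and 2 and 3 fell. The shares of all genes called were those given for the PD-L1 list. List medians were 0.65, 0.82, 0.72, 0.59 and 0.63, beside medians over all genes of -0.01, 0.02, 0.02, 0.00 and 0.01. Havcr2, which codes for the inhibitory receptor TIM-3, rose by 1.21 (SE 0.33) at 8 w and 2.19 (SE 0.34) at 14 w in NT liver and by 2.0 (SE 0.36) in 14 w nodules. Tnfrsf14, whose product binds BTLA, rose in all 5 comparisons by 1.04 to 1.68. Cd244, a receptor of natural killer and T cells, rose by 1.11 (SE 0.35) in NT liver at 14 w and 1.15 (SE 0.40) in 20 w nodules. Havcr2 averaged 0.1195 CPM and Cd244 0.316 CPM in no DEN liver at 14 w, and such low genes can pass the filter through the treated group, so the counts of rising genes describe those that passed. Lag3, an inhibitory receptor that binds MHC class II, fell, with -1.18 (SE 0.22) and -0.89 (SE 0.22) in NT liver at 14 w and 20 w and -1.25 (SE 0.27) in 20 w nodules. The other genes that fell, named after their values were seen, were Lgals9, which codes for galectin-9, and the nectin gene Pvrl2. Lgals9 fell by 0.70 and 0.64 in NT liver at 14 w and 20 w and by 0.71 and 0.85 in nodules, from 182 ± 10.99 to 111 ± 15.1 CPM in NT liver at 14 w. Pvrl2 fell by 0.70 and 0.54 in nodules at 14 w and 20 w. The summed level of the list, most of it from these genes, was 245 to 296 CPM in no DEN liver and 169 to 208 CPM in NT liver at 14 w.

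Of 10 genes of the T cell receptor and of costimulatory signalling, 8 of 10 tested rose in NT liver at 8 w, 5 of 8 at 14 w and 5 of 9 at 20 w, and 7 of 10 and 6 of 10 in nodules, and 1 fell, in 14 w nodules. This was Ptpn11, a phosphatase, named after its value was seen. Over all genes 21.7%, 32.6%, 18.1%, 39.1% and 38.8% were called. The list medians were 1.05, 0.96, 0.98, 1.17 and 0.95. Several of them are near the filter and enter a test through the treated group, so these counts describe the genes that passed. Zap70, a kinase of the receptor, rose in all 5 by 0.95 to 1.39. Cd3g, a chain of the receptor, rose by 1.73 (SE 0.40) at 8 w and 1.67 (SE 0.44) at 20 w in NT liver, and its mean stayed at or below 0.928 CPM. Cd3d had at most 0.710 CPM and Cd3e at most 0.671 CPM on average in any group.

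Genes whose pattern was most like that of each member were found by Pearson's r of log2 CPM over the 32 values of rats and tissues, among 10100 genes with a mean of at least 1 CPM. These values share the 8 groups, so r is a description with no test. For Cd276 the 5 highest were Lgals3bp (0.98), Scpep1, Prnp, Npdc1 and Tubb6 (each 0.97), and r of deviations from the group means was 0.63, 0.74, 0.64, 0.51 and 0.76. Tubb6, a tubulin, averaged 2.45 ± 0.40 CPM in no DEN liver and 66.9 ± 30.4 CPM in NT liver at 14 w. For Cd274 they were Bcl9l (0.92), Klf12 and Klf9 (both 0.89), Rab21 (0.88) and Pigm (0.87), with 0.89, 0.81, 0.85, 0.78 and 0.78 for deviations. For Cd86 they were Anxa3 (0.89), Fgl2 (0.88), Cd180 and Slc8a1 (both 0.87) and Lta4h (0.86), with 0.71, 0.70, 0.67, 0.66 and 0.71 for deviations. Cd180 is a receptor of B cells and macrophages. Between members r was -0.58 for Cd276 and Cd274, 0.68 for Cd276 and Cd86, and -0.47 for Cd274 and Cd86, and over deviations -0.20, 0.29 and -0.11.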

How the data were processed

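Per the labels and the study's methods, the authors made stranded libraries from polyadenylated RNA, sequenced 75 bp pairs, aligned them with STAR 2.7.1a to rn6 and counted pairs within exons with HTSeq. A pair was kept only where it lay inside the exons of a gene and at a single place. The deposited values are raw counts per gene, and the annotation release was not given in the sources used here. Pairs in no gene (21.5% to 34.5% of all pairs listed), not uniquely placed (7.96% to 16.3%) or ambiguous (0.82% to 1.56%) were left out. The submitters' processing notes also name DESeq2 1.22.2.

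Here, genes were filtered with filterByExpr, scaled by TMM and tested in edgeR 4.0.16 under R 4.3.3 by robust quasi-likelihood F tests, which are 2-sided, using only the 2 groups compared, with Benjamini-Hochberg adjustment over all genes tested. SE is the size of the log2 fold change over the square root of F. Nodule counts of a rat were added, and libraries without molecular identifiers give intervals of counting error only. Ratios used a prior count of 2 and exact permutation of 70 arrangements. NT liver and nodules are paired by rat, as their shared rat numbers in the labels say, and their deviations from group means correlated by 0.48 (14 w) and 0.51 (20 w). Named genes are all members, up to 4 genes of each list with the largest change among those called in a comparison with no DEN liver, and the 5 genes most like a member. A gene that this rule names is not reported here. Members and lists were chosen with earlier results of these data known. Alternatives were DESeq2 1.42.0, RLE, no filter, all 8 groups, leaving out rats, single nodules, the block, a stricter threshold and a prior count of 0.5. Scripts were tested on simulated data.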

Additional observations from a re-analysis of the deposited data

Results flagged for a closer look

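Of 49 sets of 4 to 8 values, 8 had a value far from the others by Dixon's criterion, where about 1 in 20 would by chance, that is 2.45. These were Cd274 in no DEN rat H10 at 14 w (2.85 CPM), Cd86 in no DEN rats H09 at 14 w (0.539 CPM, below the others) and H13 at 20 w (1.12 CPM, above the others), Pdcd1lg2 in no DEN rats H08 at 8 w (0.0417 CPM) and H15 at 20 w (0.0486 CPM) and in nodule 2 of F06 at 14 w (0.129 CPM), and Cd80 in no DEN rats H05 at 8 w (0.0432 CPM) and H09 at 14 w (0.0718 CPM). In the 4 sets of no DEN rats for Pdcd1lg2 and Cd80, the value is 1 or 2 counts where the other 3 rats had 0.

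The effect of DEN on Cd276 in NT liver differed between 8 w and 14 w by 1.27 on the log2 scale in the interaction test of edgeR.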

How the results depend on the processing

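The log2 fold change of Cd276 kept its direction in 108 of 108 alternatives. The number of members called at 8 w in NT liver was 1, and 3 with DESeq2, 2 without the filter and 1 to 2 when 1 rat was left out (2 without H05 or H17). At 14 w it was 2, and 3 with DESeq2, 3 without the filter and 1 with the stricter threshold. For nodules against NT liver at 20 w it was 0, and 1 with DESeq2, 1 with all 8 groups fitted together, 2 with the rat as a replicate block and 0 to 1 when 1 rat was left out (1 without H25). Cd276 in that comparison was 0.79 and not called, and called at 0.79 with DESeq2 (adjusted p = 0.0237), 0.82 with all 8 groups (adjusted p = 0.0103) and 0.78 with the block, with 0.74 to 0.83 when 1 rat was left out. The block changed no member's call at 14 w.

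The difference in the log2 ratio of Cd276 to Cd274 was 2.71 to 3.46, 3.64 to 4.18 and 2.32 to 2.77 in NT liver and 4.79 to 5.32 and 3.92 to 4.76 in nodules when 1 rat was left out, each with an exact p of 0.0571, the smallest that 3 against 4 rats allow. Without the F rats it was 2.45 (exact p = 0.133, with 2 treated rats), 3.88, 2.51, 4.85 and 4.04 (exact p = 0.0571 each). Cd274 in NT liver at 20 w was -0.00, and 0.091, 0.101, 0.012 and 0.045 without F03 (the F rat), H14, H16 and H28 (range -0.109 to 0.101 when 1 rat was left out). Cd86 in nodules against NT liver at 14 w was 0.01, and -0.24, -0.04 and -0.01 without H21, H22 and H23 and -0.18 with nodule 1 alone (range -0.24 to 0.34). Without the F rats, the change of the NT effect from 8 w to 14 w was -0.47 for Cd274, and the change of the nodule effect from 14 w to 20 w was -0.0363 for Cd86. The cause was not tested. Depth limits Cd80 and Pdcd1lg2, with at most 15 and 14 counts in a library.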
